A study of Mus musculus with 16 samples.

Results

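The glucocorticoid response genes and metallothioneins described here are 8 genes chosen by symbol from the 45777 genes listed in the deposited table: Nr3c1, Hsd11b1, Tsc22d3, Fkbp5, Sgk1, Zbtb16, Mt1 and Mt2. All 8 had reads in every library and all 8 passed the filter on low counts. Their transcripts were measured by RNA sequencing of polyA RNA from ear skin of C57BL/6 mice, labelled WT, in 3 libraries from mice that received an antibody to the cytokine oncostatin M (anti-OSM) and 3 from mice that received an antibody to Ly6G, a surface protein of neutrophils (anti-Ly6G). Both groups shared the inflammation model: 50 µM MC903 (calcipotriol, a vitamin D analogue) in 20 µL of ethanol on both ears every day for 10 days. Anti-OSM went into the skin at 20 µg per mouse every other day over that period. Anti-Ly6G was injected intraperitoneally in doses of 200 µg, the first of them 2 days ahead of MC903 and the others on days 1 and 4 after it. Age, sex, hour of collection and an isotype antibody are not given for these groups, and antibody, route and schedule differed together. The labels describe 10 further libraries of control and MC903-only ears, which were not analysed here, so a difference below says how the antibody groups stood to each other and not which of them moved.

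Glucocorticoids such as corticosterone, the main one of mice, cross the cell membrane and bind the glucocorticoid receptor, which an Hsp90 chaperone complex holds ready in the cytoplasm. The hormone-bound receptor enters the nucleus, raises one set of genes and lowers many inflammatory ones, the property used in topical treatment of eczema. Metallothioneins are small cysteine-rich proteins that bind zinc and copper; their genes respond to zinc through the transcription factor MTF1, and also to glucocorticoids and inflammatory cytokines.

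The start-site sequences of the metallothionein pair are shown because these neighbouring genes moved together, and that of Sgk1 because it held a complete palindrome for the receptor. The Mt1, Mt2 and Sgk1 lines just below are RefSeq's, build GRCm38.p6, plus strand, 5′ to 3′. The lines for Mt1 (chr8:94178839-94179088) and Mt2 (chr8:94172368-94172617) give 250 bases before the RefSeq start, with capitals for the metal response element core, searched as TGCACNC or TGCGCNC on both strands. The Sgk1 line (chr10:21993679-21993738) gives 60 bases whose first base lies at -211 from the start at 21993890, 1 of 6 starts listed for the gene, with the palindrome beginning at -189, with capitals for the arms AGAACA and TGTTCT, which with any 3 bases between them make the palindromic glucocorticoid response element.
Mt1: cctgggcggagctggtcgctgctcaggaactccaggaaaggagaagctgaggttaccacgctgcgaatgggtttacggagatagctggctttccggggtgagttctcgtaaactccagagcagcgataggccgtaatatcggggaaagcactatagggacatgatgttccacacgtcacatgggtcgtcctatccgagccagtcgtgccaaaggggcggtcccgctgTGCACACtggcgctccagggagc
Mt2: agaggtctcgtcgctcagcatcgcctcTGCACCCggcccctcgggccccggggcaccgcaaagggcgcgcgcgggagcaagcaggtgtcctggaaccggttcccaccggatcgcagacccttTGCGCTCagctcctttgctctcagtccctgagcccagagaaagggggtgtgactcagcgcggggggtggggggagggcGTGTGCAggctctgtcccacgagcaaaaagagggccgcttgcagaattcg
Sgk1: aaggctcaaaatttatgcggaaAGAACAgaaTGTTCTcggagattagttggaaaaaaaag

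The Mt2 window held 3 metal response cores and the Mt1 window 1. Among all 32851 RefSeq windows of this length, 21.4% held at least 1 and 1.26% at least 3. Annotated starts of Mt1 differ: the RefSeq gene record begins at 94178883, inside the window, while the start the window precedes is 94179089. GENCODE lists transcripts of Mt1 starting at 94179082 and at 94179211, and the 129 bases between these starts held 4 further cores; 13.1% of windows of 129 bases held any and 0.0791% held as many. The first pair of these cores stands in 30 bases at chr8:94179088-94179117, with the cores in capitals.
Mt1 between starts: ctcTGCACTCcgcccgaaaagTGCGCTCgg

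The palindrome of Sgk1 was a rare match, found in 3 of the 32851 windows, and no other start of the 6 members with a listed window (Hsd11b1, Mt1, Mt2, Sgk1, Fkbp5 and Tsc22d3) held it. The single arm AGAACA, on either strand and counted also inside the palindrome, occurred in 16.1% of windows. Among the members it was found at 3 starts of Sgk1 and at 1 of the 3 starts of Tsc22d3. These matches describe letters in a window and not bound sites.

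With anti-OSM, 3 of the 8 genes were higher and 3 were lower than with anti-Ly6G. The receptor gene Nr3c1, the steroid-activating enzyme gene Hsd11b1 and the anti-inflammatory target Tsc22d3 were higher, by 1.18-fold to 1.52-fold. The target Zbtb16 and the metallothionein genes Mt1 and Mt2 were lower, at 0.732, 0.778 and 0.689 times the anti-Ly6G level. The classical targets Fkbp5 and Sgk1 did not pass. The genes known to be raised by the receptor did not move in 1 direction. Over all 19915 genes tested, edgeR's quasi-likelihood test called 12.1%, 5.81% higher and 6.27% lower, at a Benjamini-Hochberg adjusted p below 0.05. The median log2 fold change was 0.04 over the 8 genes and 0.01 over all genes tested. The calls lay close to the threshold, with adjusted p from 0.015 for Mt2 to 0.0485 for Zbtb16. Without anti-OSM replicate 2 or 3 none of the 8 was called. Leaving out replicate 1 of either group left Mt2 as the 1 called, 3 were called without anti-Ly6G replicate 2 and 4 without anti-Ly6G replicate 3. Over all genes tested, the shares called higher and lower were 1.43% and 2.06% with the first anti-OSM replicate left out, 2.26% and 2.52% with the second and 1.18% and 2.27% with the third left out. They were 2.26% and 3.04% with the first anti-Ly6G replicate left out, 2.86% and 3.64% with the second and 7.62% and 7.14% with the third left out.

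Other ways of testing all 6 libraries called 2 to 6 of the 8 genes. DESeq2 called 3 higher and 3 lower, where 9.17% and 10.0% of the 17626 genes given an adjusted p were called. Upper quartile scaling also called 3 and 3, where 5.67% and 6.34% of all genes tested were called. RLE scaling called 2 and 3, beside 5.60% and 6.38% of all genes, and limma-voom 3 and 2, beside 5.69% and 5.92%. A non-robust fit called 2 and 2, beside 5.71% and 6.14%. A fit with no filter on low counts called 1 and 3, beside 3.23% and 4.00% of the 29734 genes it tested. A replicate block gave 2 and 3, beside 6.65% and 6.40%. On TPM, the authors' values scaled by transcript length and depth, limma called only the metallothioneins, both lower. With log2(TPM + 1) this stood beside 4.71% higher and 6.86% lower of 16234 genes tested, and with log2(TPM + 0.1) beside 4.57% and 6.69%.

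**Figure D1:**
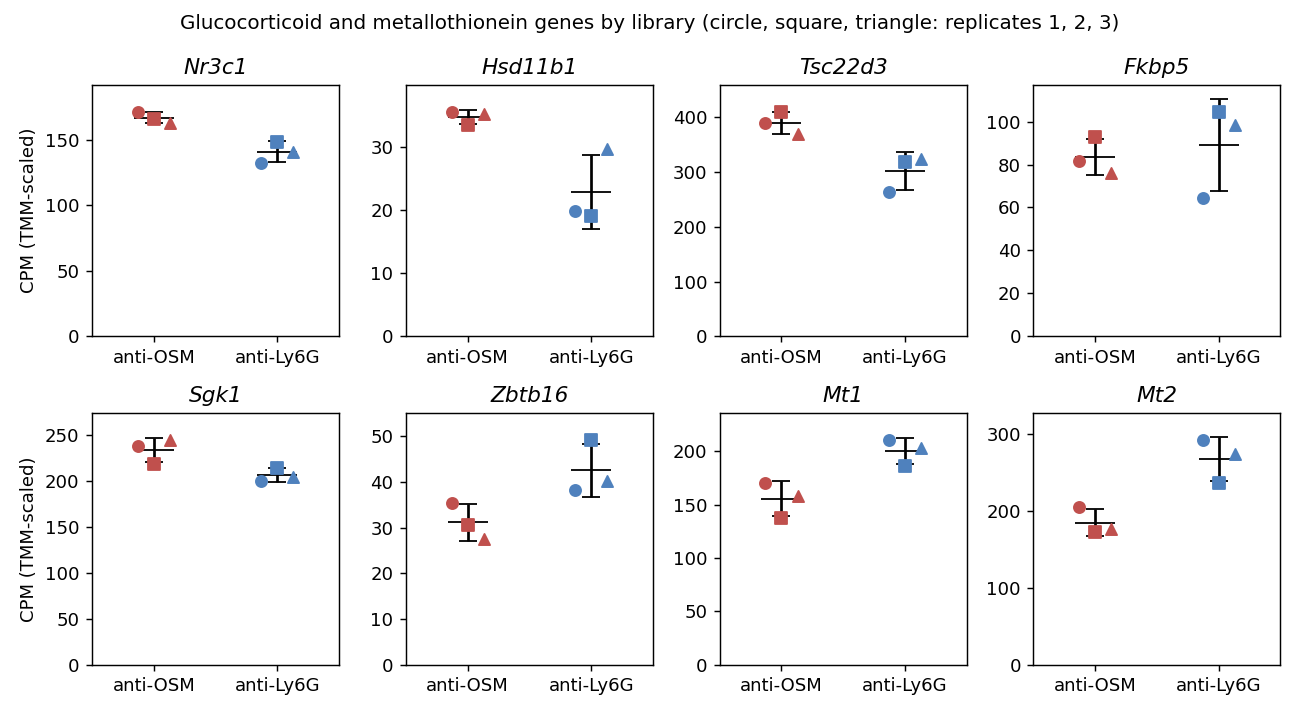
CPM, counts scaled to library size by TMM, of the 8 genes in each library; horizontal bars give the mean and vertical bars the SD of 3 libraries per group. The groups did not overlap for any gene but Fkbp5, as was so for 35.0% of all genes tested, and anti-Ly6G replicate 3 (29.5 CPM) lay nearest to the anti-OSM libraries for Hsd11b1.

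The anti-OSM libraries held 52163179 to 59063578 counts and the anti-Ly6G libraries 59381146 to 64122588. The first principal component, 43.6% of the variance, parted the groups, and on it anti-Ly6G replicate 3 stood nearer the anti-OSM libraries. Keratinocyte markers summed to 20160 to 24290 CPM in anti-OSM skin, against 24040 to 30360 CPM in anti-Ly6G skin, with 1 of 6 lower and none at 0. Of 5 neutrophil markers 4 were tested and none was called, while Ly6g did not exceed the floor of 3 counts, with 3, 0 and 0 reads in the anti-OSM libraries and 3 in each anti-Ly6G library. Skeletal muscle markers were lower in 7 of 8 cases, with summed levels of 2668 to 3196 CPM with anti-OSM against 3996 to 4361 CPM with anti-Ly6G. Cartilage markers were lower in 4 of 5, at 188 to 197 CPM against 285 to 330.1 CPM. Fibroblast markers were higher in 3 of 6, at 9281 to 9629 CPM against 5560 to 8061 CPM, and macrophage markers in 2 of 5, at 1289 to 1602 CPM against 803 to 1198 CPM. None of these listed markers was at 0 in all libraries. Mast cell markers were higher in 4 of 5, T cell markers in 2 of 6 and eosinophil markers in 2 of 4 tested, while none of 5 adipocyte and none of 4 endothelial markers was called. These marker counts stand beside 5.81% called higher and 6.27% called lower over all genes tested. In whole skin, fewer cells of a type and less RNA per cell cannot be told apart.

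Nr3c1 encodes the glucocorticoid receptor (gene ID 14815, chromosome 18, 39410545 to 39519421, GRCm38). It had 171, 166 and 163 CPM in the anti-OSM libraries, against 132, 149 and 141 CPM in the anti-Ly6G libraries. Every anti-OSM library was above every anti-Ly6G library, an arrangement that 35.0% of all tested genes showed in either direction, 17.7% with anti-OSM higher and 17.3% with it lower. This amounted to a log2 fold change of 0.24 (SE 0.07, 95% interval 0.09 to 0.40, adjusted p = 0.0483). Among the calls on these 8 genes this was the smallest difference, and the call was lost without any library but anti-Ly6G replicate 2 (adjusted p 0.0773 to 0.148). It was also lost with RLE scaling (adjusted p = 0.0514), a non-robust fit (0.0502), a replicate block (0.0701) and no filter on low counts (0.0703). The same was so for limma on log2(TPM + 1) and log2(TPM + 0.1) (0.112 and 0.113).

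Hsd11b1 encodes the enzyme of the endoplasmic reticulum that turns inactive 11-dehydrocorticosterone into corticosterone inside the cell (gene ID 15483, chromosome 1, 193221640 to 193264045). It stood at 35.5, 33.5 and 35.1 CPM with anti-OSM, against 19.8, 19.1 and 29.5 CPM with anti-Ly6G. The anti-OSM libraries lay within a narrow band, whereas anti-Ly6G replicate 3 was well above the other 2 of its group. The log2 fold change was 0.60 (SE 0.16, 95% interval 0.24 to 0.97, adjusted p = 0.0462), the largest rise among the 8. Without anti-Ly6G replicate 3 it was 0.83 (adjusted p = 0.00139). Without any other library it did not pass (0.49 to 0.63, adjusted p 0.106 to 0.142). With no filter on low counts its adjusted p was 0.0522, and with limma on log2(TPM + 1) and log2(TPM + 0.1) it was 0.0547 and 0.0564. Hsd11b1 is known to be active in fibroblasts and macrophages, of whose markers 3 of 6 and 2 of 5 were called higher. Markers of mast cells (4 of 5), T cells (2 of 6) and eosinophils (2 of 4 tested) were called higher too. Those of skeletal muscle (7 of 8), cartilage (4 of 5) and keratinocytes (1 of 6) were called lower. None of 5 for adipocytes, 4 for endothelium or 4 tested for neutrophils was called. Over all genes tested, 5.81% were called higher and 6.27% lower. The part of any of these cell types in the difference was not tested.

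Tsc22d3 encodes GILZ, a leucine zipper protein that mediates anti-inflammatory actions of glucocorticoids (gene ID 14605, chromosome X, 140539528 to 140600522). Its level was 389, 409.7 and 369.9 CPM with anti-OSM, against 263, 318 and 324 CPM with anti-Ly6G. The groups did not overlap, and anti-Ly6G replicate 1 was the lowest library. Its log2 fold change was 0.37 (SE 0.09, 95% interval 0.15 to 0.58, adjusted p = 0.0392). The call remained without anti-Ly6G replicate 3 (adjusted p = 0.0285) and was lost without any other library (0.0612 to 0.128).

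Fkbp5 encodes FKBP51, a co-chaperone of Hsp90 that lowers the receptor's affinity for hormone and is itself raised by it (gene ID 14229, chromosome 17, 28398753 to 28486149). It had 81.5, 92.8 and 76.1 CPM with anti-OSM, against 64.5, 104 and 98.3 CPM with anti-Ly6G. The anti-OSM values lay inside the range of the anti-Ly6G values, whose replicate 1 was the lowest of all 6 libraries. The log2 fold change was -0.09 with a 95% interval of -0.51 to 0.32 (adjusted p = 0.768). A difference of either sign up to the ends of that interval was thus not resolved, and without anti-Ly6G replicate 2 the sign turned (0.037, adjusted p = 0.931).

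Sgk1 encodes a serine/threonine kinase that regulates ion transport and cell survival and was named for its induction by serum and glucocorticoids (gene ID 20393, chromosome 10, 21882184 to 21999903). It had 238, 218 and 244 CPM with anti-OSM, against 199.6, 214 and 204 CPM with anti-Ly6G. These values did not overlap, although in TPM anti-OSM replicate 2 (181 TPM) lay below anti-Ly6G replicate 2 (187 TPM). The log2 fold change was 0.18 (SE 0.07, 95% interval 0.02 to 0.34), which did not pass over all genes (adjusted p = 0.128).

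Zbtb16 encodes PLZF, a zinc finger transcription factor strongly induced by glucocorticoids in several cell types and also needed by innate-like T cells (gene ID 235320, chromosome 9, 48651797 to 48836225). It had 35.4, 30.5 and 27.5 CPM with anti-OSM, against 38.2, 49.1 and 40.2 CPM with anti-Ly6G. The groups did not overlap, with the closest libraries being anti-OSM replicate 1 and anti-Ly6G replicate 1. Its log2 fold change was -0.45 (SE 0.12, 95% interval -0.73 to -0.17, adjusted p = 0.0485). The call was kept without anti-Ly6G replicate 3 (adjusted p = 0.0484) and lost without any other library (0.0581 to 0.155). It was also lost with a non-robust fit (0.0518), limma-voom (0.05) and limma on log2(TPM + 1) and log2(TPM + 0.1) (0.0814 and 0.082). Skeletal muscle markers were lower in 7 of 8 cases, cartilage markers in 4 of 5 and keratinocyte markers in 1 of 6. T cell markers were higher in 2 of 6, mast cell markers in 4 of 5 and eosinophil markers in 2 of 4 tested. Fibroblast markers were higher in 3 of 6 and macrophage markers in 2 of 5. Over all genes tested, 6.27% were lower and 5.81% higher. T cell markers summed to 59.0 to 67.5 CPM in anti-OSM skin, against 33.05 to 48.2 CPM in anti-Ly6G skin. The part of muscle, T cells or any other of these types in the difference of Zbtb16 was not tested.

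Mt1 and Mt2 encode the metallothioneins found in most tissues. They lie next to each other on chromosome 8, Mt2 (gene ID 17750) at 94172618 to 94173567 and Mt1 (gene ID 17748) at 94178883 to 94180327, with 5315 bases between them. Mt1 had 170, 138 and 158 CPM with anti-OSM, against 210.4, 186 and 202.8 CPM with anti-Ly6G. Mt2 had 205, 172 and 176 CPM with anti-OSM, against 292, 237 and 275 CPM with anti-Ly6G. In both genes every anti-OSM library was below every anti-Ly6G library, and replicate 2 was the lowest of each group. The log2 fold change was -0.36 for Mt1 (SE 0.09, 95% interval -0.57 to -0.15, adjusted p = 0.0377). For Mt2 it was -0.54 (SE 0.10, 95% interval -0.77 to -0.31, adjusted p = 0.015), the lowest adjusted p of the 8. Leaving out anti-OSM replicate 1 or any 1 anti-Ly6G library kept the call of Mt2 (adjusted p 0.0154 to 0.048), whereas it was lost without anti-OSM replicate 2 (0.0601) or 3 (0.0637). Mt1 kept its call without anti-Ly6G replicate 2 (0.0478) and lost it without any other library (0.0553 to 0.114). No stretch of 50 bases in annotated transcripts of Mt1 or Mt2 occurred in a transcript of another gene. Exons of an antisense gene, Gm45774, overlap Mt2, and the sources used here do not say whether reads were counted by strand, so a share of the Mt2 reads could come from it.

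**Figure D2:**
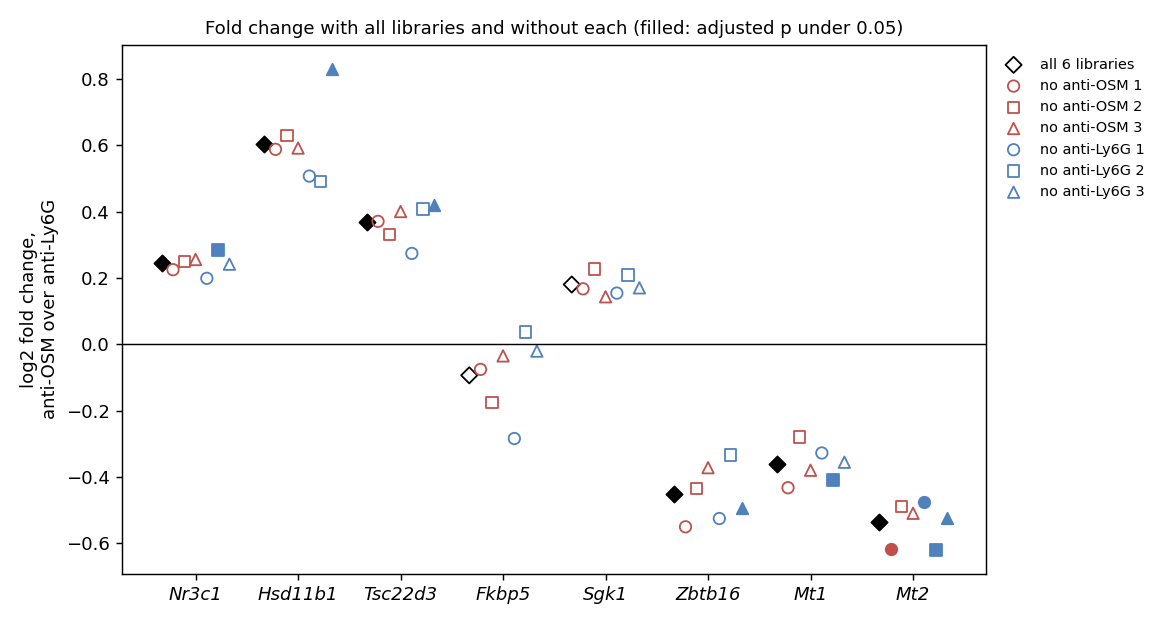
Log2 fold change (anti-OSM over anti-Ly6G) of each gene with all 6 libraries (black diamonds) and without each library in turn; filled symbols passed at an adjusted p below 0.05. All signs stayed the same except for Fkbp5 (0.037 without anti-Ly6G replicate 2), while most calls were lost when a library was left out.

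Levels of different genes can be set side by side in TPM. Over the 6 libraries the mean was 847 TPM for Mt2, 636 for Mt1, 286 for Tsc22d3, 185 for Sgk1, 49.1 for Nr3c1, 46.4 for Fkbp5, 44.2 for Hsd11b1 and 10.1 for Zbtb16. Mt2 was above Mt1 in all 6 libraries, though their ranges over libraries, 637 to 1064 TPM and 479 to 743 TPM, overlapped. Mt1, Tsc22d3 and Sgk1 were each separated from the next gene by ranges that did not meet. Nr3c1, Fkbp5 and Hsd11b1 were not separated: their ranges of 41.1 to 55.01, 33.6 to 57.9 and 29.6 to 55.1 TPM overlapped. Zbtb16 lay below all others in each library. In every library the receptor gene was at least 13.3 times the level of the mineralocorticoid receptor gene Nr3c2, at 17.5 to 18.8 times with anti-OSM and 13.3 to 13.9 times with anti-Ly6G.

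**Figure D3:**
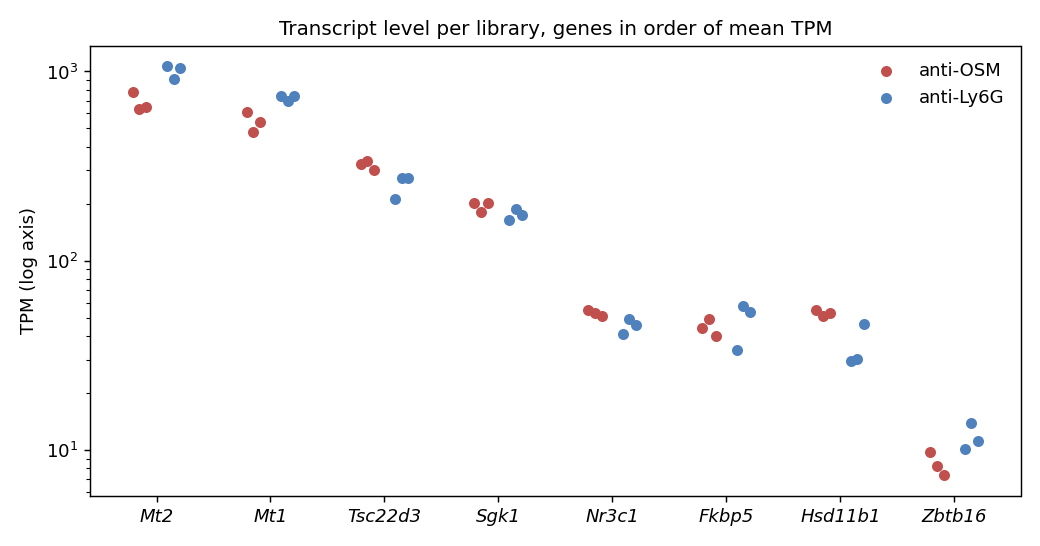
Level of each gene in TPM on a log axis, in order of mean level, with 3 points per group. The metallothioneins stood highest at 479 to 1064 TPM, and Zbtb16 lowest at 7.34 to 13.9 TPM.

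The metallothionein pair together reached 1387, 1116 and 1189 TPM with anti-OSM, against 1807, 1617 and 1784 TPM with anti-Ly6G. Mt2 took rank 172 to 205 by TPM among the 45777 listed genes with anti-OSM and rank 143 to 158 with anti-Ly6G. The ratio of Mt2 to Mt1 was 1.26, 1.33 and 1.19 with anti-OSM, against 1.43, 1.31 and 1.42 with anti-Ly6G, so the ratios overlapped.

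A list of 17 genes held the receptor's chaperones and coregulators, genes of steroid conversion, the mineralocorticoid receptor gene and efflux pump genes. All 17 were tested, of which 0 were higher, 2 were lower and 15 did not pass, beside 12.1% called over all genes. The median log2 fold change of the list was -0.04. Stip1, which passes clients between Hsp70 and Hsp90, was lower at 82.2 ± 1.88 CPM with anti-OSM and 103 ± 5.19 CPM with anti-Ly6G (SD, n = 3; -0.33, SE 0.06, adjusted p = 0.0164). Ptges3, the Hsp90 co-chaperone p23, was also lower, at -0.25 (adjusted p = 0.0472). Stip1 lost its call without each anti-OSM library in turn, the highest adjusted p being 0.0691, and Ptges3 without any library but anti-Ly6G replicate 2, the highest being 0.147. Hsp90aa1 (-0.29, adjusted p = 0.071) and Fkbp4, the co-chaperone FKBP52 (-0.19, adjusted p = 0.105), did not pass, and their groups did not overlap. Nr3c2 had -0.19 (adjusted p = 0.254). H6pd, which supplies the NADPH that Hsd11b1 uses, had 0.25 (95% interval 0.00 to 0.50, adjusted p = 0.168). Hsd11b2, the enzyme that inactivates corticosterone, was close to the floor with 8, 11 and 11 reads with anti-OSM, against 14, 19 and 33 reads with anti-Ly6G, and did not pass (adjusted p = 0.141).

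Of 13 genes for steroid and stress hormone synthesis, 7 were tested and 1 was called, beside 12.1% over all genes. Cyp17a1, a steroid hydroxylase and lyase, was lower at 14.5, 12.04 and 12.4 CPM with anti-OSM, against 23.9, 28.1 and 16.4 CPM with anti-Ly6G (-0.81, SE 0.19, adjusted p = 0.0301). Its call was kept without anti-Ly6G replicate 3 (adjusted p = 0.00228) and lost without any other library (highest adjusted p 0.105). Cyp11a1, which cleaves the cholesterol side chain, had 0.57 (adjusted p = 0.134) and did not pass, and neither did Hsd3b6 (-0.45), Star (0.20), Nr5a2 (-0.42) and Mc2r (-0.13). Cyp11b1 and Cyp21a1, which were too low to be tested, are named here after their values were seen. Cyp11b1, the enzyme of the last step to corticosterone, did not exceed the floor of 3 counts: it had 0, 2 and 0 reads in anti-OSM libraries, against 3, 0 and 0 in anti-Ly6G libraries. Cyp21a1 had 0 reads in every anti-OSM library, against 7, 0 and 7 in the anti-Ly6G libraries.

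Most other genes known to be raised by glucocorticoids did not pass, and the few calls among them went in both directions. Of 25, all tested, 2 were higher, 3 were lower and 20 did not pass, beside 5.81% higher and 6.27% lower over all genes, and their median log2 fold change was -0.01. Per1, a clock gene and direct receptor target, was higher at 220.0, 214 and 232 CPM with anti-OSM, against 159, 170.1 and 166 CPM with anti-Ly6G (0.43, SE 0.06, adjusted p = 0.00824). Cd163, the haemoglobin scavenger receptor of macrophages, was higher at 592, 308 and 488 CPM against 158, 191 and 269 CPM (1.17, SE 0.28, adjusted p = 0.0444). Map3k6, a stress kinase gene, was lower at 51.8, 50.3 and 50.3 CPM against 71.1, 70.6 and 63.2 CPM (-0.43, SE 0.07, adjusted p = 0.00957). The cell cycle inhibitor gene Cdkn1a (-0.39, adjusted p = 0.0363) and Klf15, a transcription factor gene of amino acid catabolism (-0.41, adjusted p = 0.0376), were lower too. Per1 and Map3k6 kept their calls without each library in turn (adjusted p at most 0.0427 and 0.046). Cdkn1a lost its call without each anti-OSM library or anti-Ly6G replicate 2, Klf15 without any library but anti-Ly6G replicate 1, and Cd163 without any but anti-OSM replicate 2 and anti-Ly6G replicate 3, with highest adjusted p of 0.122, 0.131 and 0.141. Lcn2 (-0.47, adjusted p = 0.0715), Klf9 (0.14, 95% interval -0.01 to 0.29) and Dusp1 (0.35, 95% interval -0.14 to 0.85) did not pass. Cd163 is itself a macrophage gene, and 2 of the 5 macrophage markers were called higher while 3 did not pass; their part was not tested.

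**Figure D4:**
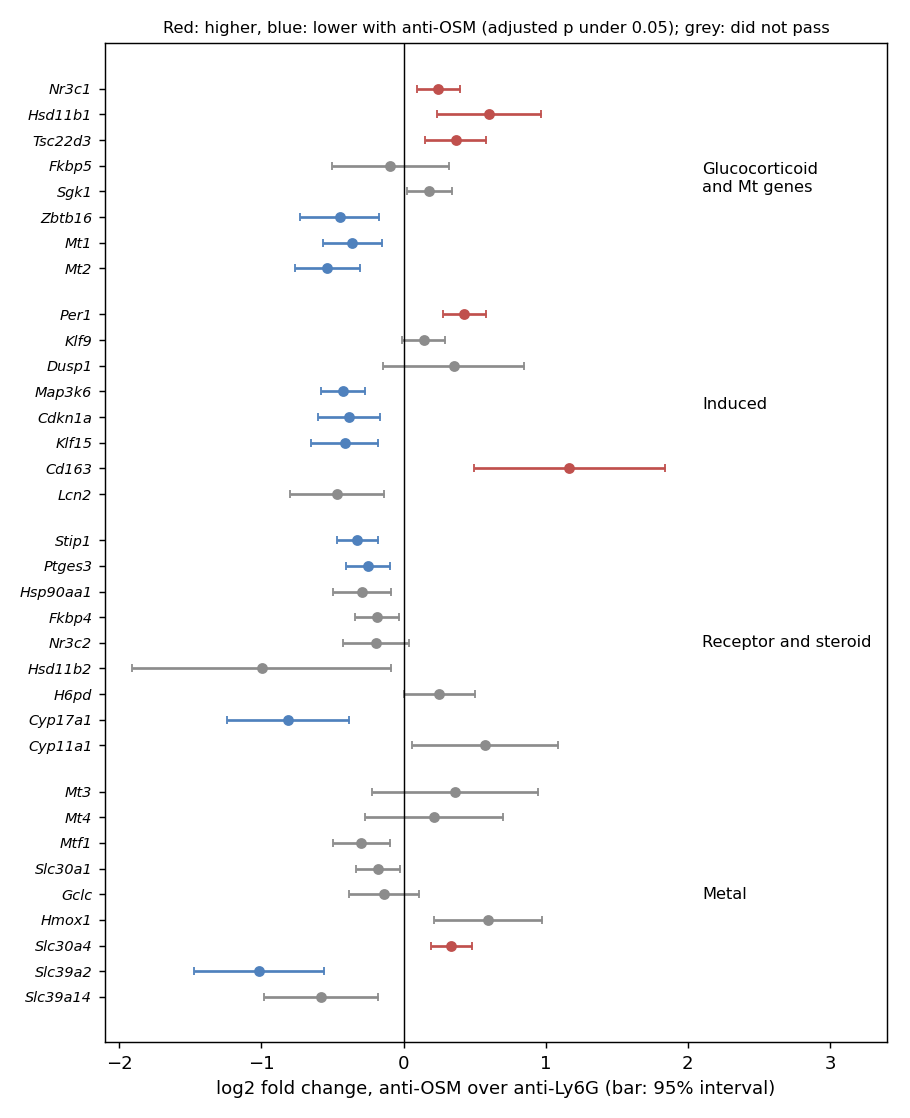
Log2 fold change (anti-OSM over anti-Ly6G) with 95% intervals for the 8 genes and for named genes of the receptor, steroid, induced and metal lists; red and blue genes passed as higher and lower, grey genes did not. The 3 higher and 3 lower genes of the set lie between -0.54 and 0.60, and the receptor-induced genes fall on both sides of 0.

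Genes through which glucocorticoids drive muscle wasting were lower in 2 of 7 cases and higher in 0, beside 6.27% lower over all genes, with a median of -0.21. Mstn, the muscle growth inhibitor myostatin, had -0.76 (adjusted p = 0.0159) and Trim63, the ubiquitin ligase MuRF1, -0.51 (adjusted p = 0.04), while the ligase gene Fbxo32 (-0.21, adjusted p = 0.0658), Eif4ebp1 (-0.26), Foxo3 (-0.16) and Cblb (0.09) did not pass. Leaving out anti-OSM replicate 1 or 3 ended the call of Mstn (adjusted p up to 0.0668), and Trim63 kept its call only without anti-Ly6G replicate 3 (adjusted p otherwise up to 0.131). Of the skeletal muscle markers, 7 of 8 were lower, and their part was not tested. Of 15 inflammatory genes known to be lowered by glucocorticoids, 3 were lower, 0 higher and 12 did not pass, beside the same 6.27%, with a median of -0.69. Those lower were Ptgs2, which encodes the inducible cyclooxygenase (-2.73), the collagenase gene Mmp13 (-2.74) and the alarmin gene Tslp (-2.19), each also called without every library in turn. Mmp3 (-0.36), Il1b (-0.88) and Ccl2 (-0.93) did not pass. Il6 (0.15), Sele (0.16), Csf2 (0.35) and Mmp9 (0.005), named here after their values were seen, had the opposite sign and did not pass either. The remaining genes of the list were negative and did not pass. What lowered Ptgs2, Mmp13 and Tslp was not tested.

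Beyond Mt1 and Mt2, other metallothionein and metal-responsive genes were not called: 0 of 6 were higher and 0 lower by edgeR. Mt4, the metallothionein of stratified epithelia, had 48.5, 50.4 and 30.5 CPM with anti-OSM, against 37.5, 43.4 and 30.8 CPM with anti-Ly6G (0.21, 95% interval -0.27 to 0.70). Mt3, best known from brain, was rare, at 38, 43 and 41 reads with anti-OSM, against 39, 38 and 26 reads in the anti-Ly6G group (0.36, 95% interval -0.22 to 0.95). The metal sensor gene Mtf1 had 25.8, 26.7 and 28.4 CPM with anti-OSM, against 30.2, 36.4 and 32.6 CPM with anti-Ly6G, groups that did not overlap, with a log2 fold change of -0.30 that did not pass (adjusted p = 0.063). The zinc exporter gene Slc30a1, a target of MTF1, likewise had -0.18 with no overlap and an adjusted p of 0.129. Gclc, for glutathione synthesis, had -0.14 (adjusted p = 0.433). Hmox1, for haem oxygenase, went the other way at 0.59 (adjusted p = 0.0568). In CPM the groups also did not overlap for Mt3 and Hmox1, both higher with anti-OSM. This made 2 genes higher and 2 lower without overlap, as was so for 17.7% and 17.3% of all genes tested. At an unadjusted p below 0.05, 3 of the 6 differed, as did 29.0% of all genes tested, and DESeq2 called 1 of the 6 higher and 1 lower.

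Of 23 further zinc transporter genes 20 were tested, 1 was higher, 2 were lower and 17 did not pass, beside 12.1% called over all genes. Slc30a4, for a transporter into vesicles, was higher at 116 ± 3.79 CPM with anti-OSM and 91.6 ± 3.79 CPM with anti-Ly6G (SD, n = 3; 0.34, SE 0.06, adjusted p = 0.0148). Slc39a2, for a zinc importer, was lower at 9.83, 9.44 and 8.43 CPM against 22.8, 20.4 and 12.8 CPM (-1.02, adjusted p = 0.0194). Slc30a10, best known as a manganese exporter, was lower at 12, 4 and 7 reads against 73, 63 and 15 reads (adjusted p = 0.0459). Slc30a4 lost its call without each anti-OSM library (adjusted p up to 0.0618), and Slc39a2 and Slc30a10 without any library but anti-Ly6G replicate 3 (up to 0.0756 and 0.149). The importer gene Slc39a14 (-0.58, adjusted p = 0.071), Slc30a9 (-0.17) and Slc30a2 (-0.59) did not pass.

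Corticosterone release follows the day, and clock genes were described beside these results because Per1 belongs to both lists. Of 18 clock genes 9 were higher, 3 lower and 6 did not pass, beside 5.81% higher and 6.27% lower over all genes. Dbp had 65.0, 74.0 and 72.3 CPM with anti-OSM, against 19.5, 26.2 and 20.7 CPM with anti-Ly6G (1.67, adjusted p = 8.89e-04). Arntl had 20.04, 20.6 and 17.8 CPM against 43.4, 41.8 and 39.95 CPM (-1.10, adjusted p = 9.85e-04). Per2 (1.41), Per3 (1.17), Nr1d2 (0.80) and Npas2 (-2.02) also passed, and these 6 kept their calls without each library in turn. Clock and Hlf, named here after their values were seen, were called but did not keep it: Clock was lost without any 1 library (adjusted p up to 0.132) and Hlf in 3 of the 6 cases (up to 0.0628). The sources used here do not give the hour of collection. Its part in the differences of the glucocorticoid and metallothionein genes was not tested.

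**Figure D5:**
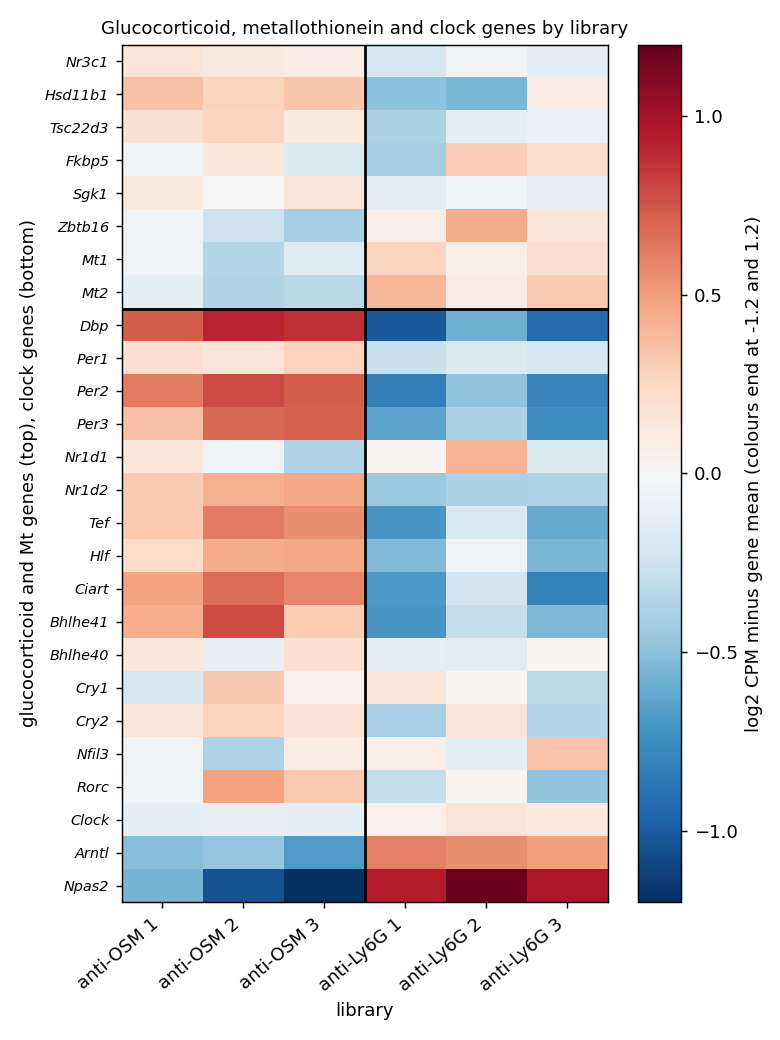
Log2 CPM of each gene minus its mean over the 6 libraries, for the 8 genes above the line and 18 clock genes below it, with anti-OSM libraries on the left. Dbp, Per2 and Per3 part the groups more widely than any of the 8 genes, and Arntl and Npas2 go the opposite way.

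The most variable of the 8 genes over the 6 libraries were Hsd11b1, with a range of 0.89 on the log2 CPM scale, and Zbtb16, with 0.84. Among other tested genes with a mean of at least 10 CPM, those closest in pattern to Hsd11b1 were Sash3, Tifa and Cyba, with a root mean square difference of 0.04 to 0.05 in mean-centred log2 CPM over the 6 libraries. Closest to Zbtb16 were Dock5, Abl2 and Fitm2, at 0.05 to 0.06. With 6 libraries in 2 groups, such likeness largely records the same group difference and library order.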

How the data were processed

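Ear skin polyA RNA of 6 libraries was analysed, 3 per antibody group. Per the file headers, the deposited table gives each gene's read count, FPKM and TPM in every library; the authors made the FPKM values per length and depth, and they were not used. The TPM values, deposited by the authors, gave levels between genes. The submitters' processing notes name HISAT2 2.1.0, StringTie 2.1.3b and edgeR 3.40.2 without roles, and the mm10 build; whether counting used strand is not given in those sources. Counts were tested with edgeR 4.0.16 in R 4.3.3 (filterByExpr, TMM, robust quasi-likelihood F-tests, 2-sided, Benjamini-Hochberg over all 19915 genes, threshold 0.05), without covariates. SEs come from the fold change and F statistic. The method was tested on simulated data, but the differences simulated were larger than those of any of the 8 genes except Hsd11b1. Alternatives used DESeq2 1.42.0, limma 3.58.1, other scalings and filters, and each library left out. Since the labels do not tie libraries to individual mice, the p-values reflect variation among libraries, which may be technical. Same-group libraries differed by more than counting noise (chi-square per gene at least 26.2). A floor of 3 counts was 0.0466 to 0.0565 CPM, for counting error only. The 8 genes and all lists were chosen with earlier results of these data known. Beside them the text names, from each list, the genes of lowest p (at most 6) and a fixed set (Per1, Dusp1, Klf9, Nr3c2, Hsd11b2, H6pd, Mt3, Mt4, Mtf1, Slc30a1, Dbp, Per2, Arntl); genes named outside this rule are marked as such or are markers. Promoters were searched in RefSeq windows of GRCm38.p6. The 2 GENCODE starts of Mt1 and the bases between them come from GENCODE transcripts, and other positions are RefSeq's.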

Additional observations from a re-analysis of the deposited data

How the results depend on the processing

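Of the 8 genes, 3 were called higher and 3 lower with all libraries, 3 and 3 in DESeq2 and with upper quartile scaling, and 2 to 4 in all without a filter, with a non-robust fit or by limma on log2(TPM + 1) or log2(TPM + 0.1). With no filter on low counts 1 of the 8 was higher. Leaving out 1 library gave 0 to 2 higher and 0 to 2 lower of the 8, and 240 to 1545 higher and 420 to 1447 lower over all genes. The sign reversed for Fkbp5 alone, whose log2 fold change ran from -0.28 to 0.037 when 1 library was left out, the highest being without anti-Ly6G replicate 2. For the other 7 genes every alternative kept the sign. In the lists, counts without 1 library ran from 1 to 2 higher and 1 to 3 lower for induced genes, 0 to 2 lower for receptor machinery, 0 to 1 higher and 0 to 1 lower for steroid synthesis, 0 to 2 lower for muscle wasting, 0 to 1 higher for metal-responsive genes, and 0 to 1 higher and 0 to 4 lower for zinc transporters. With no filter, 1 induced gene was higher, and 1 receptor machinery gene and 1 zinc transporter were lower. Receptor machinery also had 1 lower with upper quartile scaling or limma-voom. Limma-voom left 0 steroid synthesis genes and 1 zinc transporter lower. DESeq2 called 1 steroid synthesis gene higher, 1 metal-responsive gene higher and 1 lower, and 4 zinc transporters lower. A non-robust fit called 1 metal-responsive gene higher. The cause of these changes was not tested, though fits without a library have fewer samples.

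The labels do not say whether replicate numbers pair the libraries. Deviations of same-numbered libraries correlated at 0.01, 0.04 and 0.12, the last being the highest of all pairs, and not every library correlated best with its own number. With 3 libraries per group, such correlations cannot settle whether libraries were paired. A replicate block gave 2 higher and 3 lower of the 8 genes, Nr3c1 not passing (adjusted p = 0.0701), 1325 higher and 1275 lower of all genes, 1 muscle wasting gene lower, 5 inflammatory genes lower and 1 metal-responsive gene higher.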
